A study of Astyanax mexicanus with 12 samples.

Results

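Of the 683 miRNAs of *Astyanax mexicanus* in the deposited table, 30 set the embryos of the Pachón cave morph apart from those of every other morph sequenced. Of the 30, 19 were higher and 11 were lower in Pachón than in Tinaja, Molino, and surface fish. They were chosen by their levels. Counts were scaled to the total of their library (counts per 1000000 counts, CPM), the CPM of the 3 libraries of a morph were averaged, and the level of a morph was taken as log2(mean CPM + 0.5). Among the 503 miRNAs that averaged 10 counts or more over the 12 libraries, the 30 members are those for which the widest step between neighboring levels of the 4 morphs was at least 0.7 (log2) and left Pachón on its own. The steps, fold differences, and calls between Pachón and the other morphs therefore describe the choice. Calls from a fit over all miRNAs are counted for these contrasts further on, as a description and not as a test of the members.

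Small RNA was isolated from wild-type embryos at 24 hpf of 3 cave morphs, Pachón, Tinaja, and Molino, and of the river-dwelling surface fish, with 3 libraries per morph and no treatment. Embryos were pooled within a morph, and the sources used here do not say whether its 3 libraries came from separate collections, so the spread between libraries may be technical. The deposited values are whole-number counts for each mature miRNA. Totals lay between 10035615 and 15279059 counts in the Pachón libraries and between 5539157 and 14673376 in the other 9, so that 3 counts, the limit of detection used below for a library, amounted to between 0.196 and 0.542 CPM.

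A miRNA is cut from a hairpin precursor and loaded into an Argonaute protein. The seed near its 5′ end then pairs with sites that lie mostly in the 3′ UTRs of mRNAs and lowers their stability or translation. In zebrafish embryos, where the eye, brain, and muscle form at a similar age, many miRNAs are expressed in restricted tissues. In a whole embryo, fewer cells of a type and less RNA per cell cannot be told apart. The names used here are running numbers given by the authors with the prefix astmex-, so a number does not relate a miRNA to the same number in another species, and no tissue or family is assigned to any member. The mature sequences were not analysed here. A lower level and reads lost through a sequence difference between the morphs cannot be told apart in these counts.

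**Figure D1:**
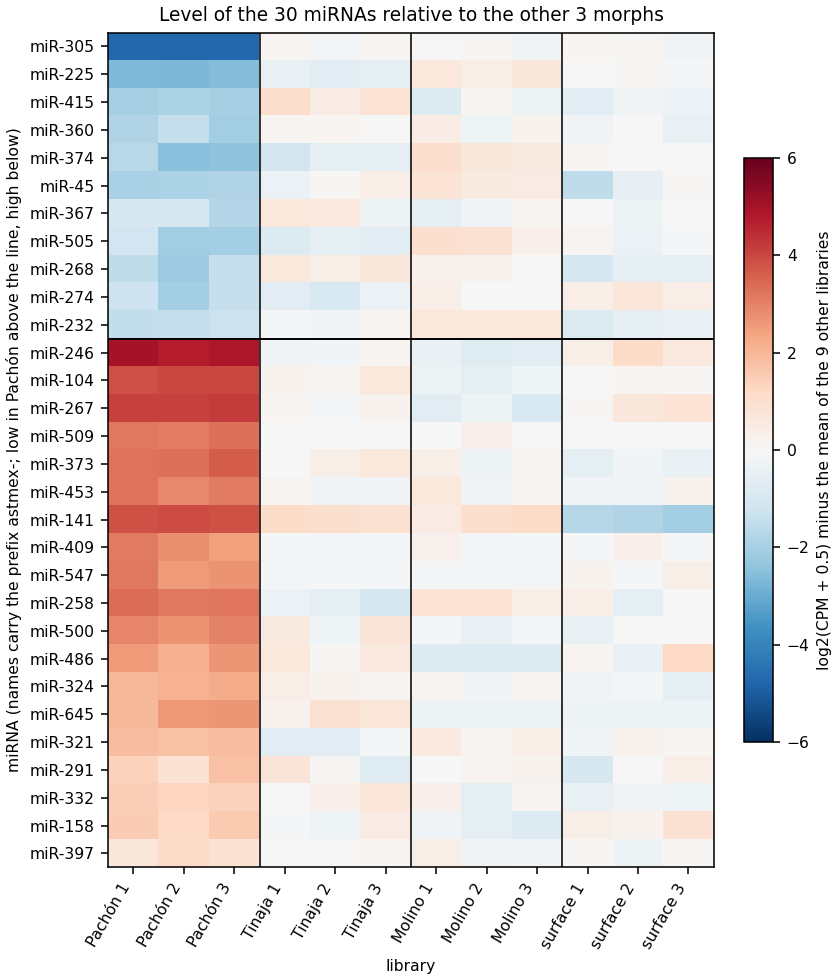
Level of each of the 30 miRNAs (rows, low in Pachón above the horizontal line and high below it) in each of the 12 libraries (columns, grouped by morph). Color gives log2(CPM + 0.5) minus the mean of the 9 libraries of the other morphs. The 3 Pachón columns stand apart in every row, though the choice requires this only of the morph mean. astmex-miR-141 is also low in the surface fish columns.

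The same rule was applied to each morph. A step of at least 0.7 left Pachón alone in 30 of the 503 miRNAs (5.96%), Tinaja in 40 (7.95%), Molino in 83 (16.5%), and surface fish in 37 (7.36%), and 256 had no step of this size. Higher members outnumbered lower ones in Pachón, 19 to 11, while Tinaja had 20 on each side. Molino had 49 higher and 34 lower, and surface fish had 13 higher and 24 lower. These are counts by 1 rule, and the differences between them were not tested. In Pachón, 9 of the 19 higher members passed the count minimum only through the Pachón libraries. With a minimum of 30 counts, Pachón had 10 higher and 9 lower members. With all libraries thinned to the shallowest total, it had 12 on each side. The excess of higher members thus depends on the minimum and on depth, and the other morphs were not recounted in these ways. The level of Pachón lay within the range of the other 3 morphs for 293 of the 503 miRNAs, above it for 117, and below it for 93. Another 13 miRNAs lay at least 0.7 outside that range, 6 above and 7 below, but had their widest step elsewhere.

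**Figure D2:**
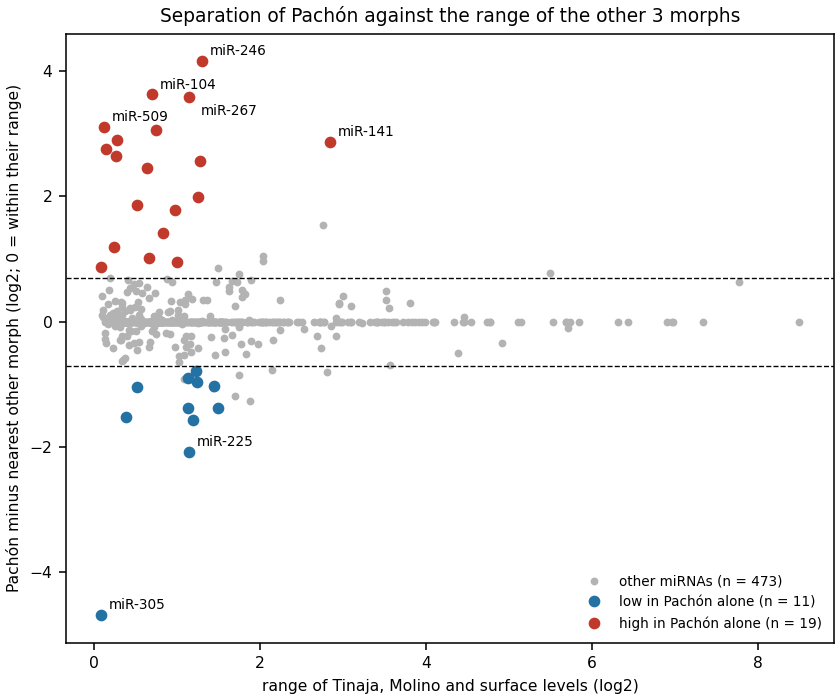
Difference between Pachón and the nearest other morph (y axis, log2, 0 where Pachón lies within the range of the others) against the range of Tinaja, Molino, and surface fish (x axis, log2), for the 503 miRNAs that passed the count minimum. Dashed lines mark 0.7 in either direction. The 19 higher members reach 4.15, and astmex-miR-305 lies lowest at −4.68. Gray points beyond the lines had a wider step between other morphs.

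The 3 higher members with the widest steps were also among the 5 that averaged over 100 counts. Under the rule, the widest step on the higher side belonged to astmex-miR-246, which had 58.8, 49.5, and 54.6 CPM in the Pachón libraries, against 1.13, 1.16, and 1.59 CPM in Tinaja, 0.911, 0.624, and 0.725 CPM in Molino, and 1.87, 3.51, and 2.35 CPM in surface fish. Every Pachón library was thus far above the highest of the other 9. The mean in Pachón was 42.0 times that in Tinaja, 72.1 times that in Molino, and 21.1 times that in surface fish. Surface fish came next to Pachón, with a step of 4.15 between them.

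The most abundant higher member was astmex-miR-104, at 255, 279, and 282 CPM in Pachón, against 19.7, 18.5, and 26.6 CPM in Tinaja, 13.8, 11.2, and 14.3 CPM in Molino, and 16.7, 18.6, and 18.2 CPM in surface fish. The Pachón libraries lay close together, and the other 9 lay far below them, between 11.2 and 26.6 CPM. The ratio of means was 12.6 to Tinaja, 20.8 to Molino, and 15.2 to surface fish. The levels of Tinaja and surface fish differed by no more than the spread of the Tinaja libraries (21.6 ± 4.33 against 17.9 ± 0.978 CPM, SD, n = 3 each), with Molino lowest at 13.1 ± 1.63 CPM (SD, n = 3).

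Levels of astmex-miR-267 were 49.8, 50.7, and 54.2 CPM in Pachón, against 2.67, 2.32, and 2.91 CPM in Tinaja, 1.43, 1.87, and 1.09 CPM in Molino, and 2.58, 4.27, and 4.69 CPM in surface fish. As with astmex-miR-246, Molino was lowest and surface fish came next to Pachón. The Pachón mean was 19.6 times that of Tinaja, 35.2 times that of Molino, and 13.4 times that of surface fish.

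A similar Pachón level was found for astmex-miR-258, with 53.3, 46.7, and 48.7 CPM, against 3.72, 3.13, and 2.11 CPM in Tinaja, 8.72, 8.73, and 6.40 CPM in Molino, and 6.56, 3.20, and 4.87 CPM in surface fish. Here the order of the other morphs was different, with Molino nearest to Pachón (6.24-fold) and Tinaja farthest (16.6-fold). The surface fish libraries overlapped those of both.

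**Figure D3:**
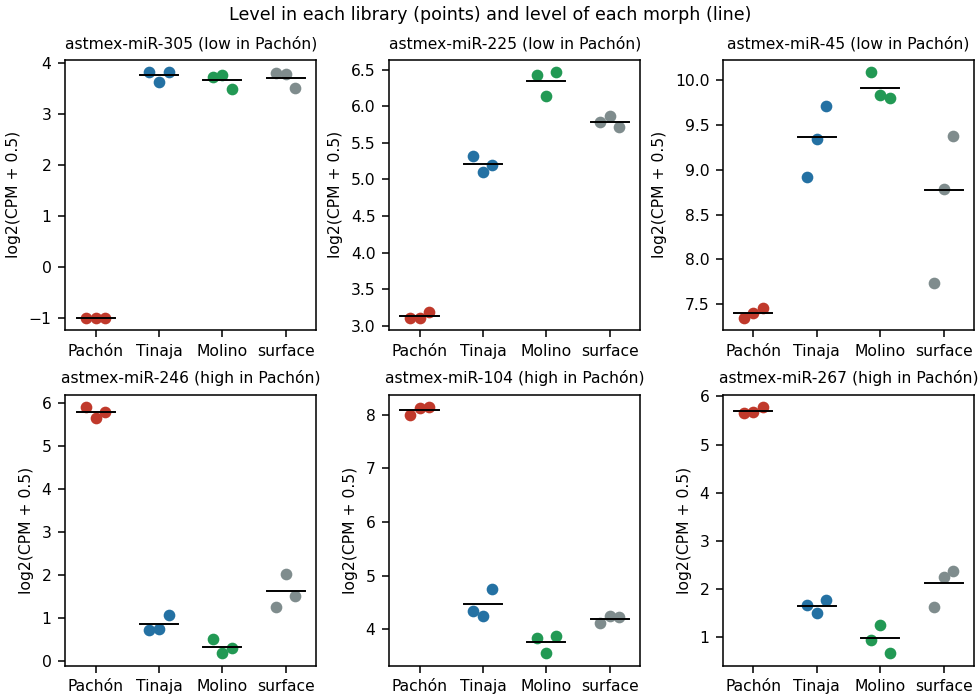
Level in each library, log2(CPM + 0.5), of 3 lower members (top row) and 3 higher members (bottom row). Points are the 3 libraries of each morph, the horizontal line is log2(mean CPM + 0.5), and the y axes differ between panels. No Pachón point lies within the range of the other 9 libraries, and the lowest surface fish point of astmex-miR-45 comes closest.

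In 1 higher member, a further step was nearly as wide as that next to Pachón. astmex-miR-141 had 39.7, 41.9, and 39.6 CPM in Pachón, against 5.50, 5.04, and 4.76 CPM in Tinaja, 3.51, 5.12, and 5.56 CPM in Molino, and 0.351, 0.305, and 0.181 CPM in surface fish, where the libraries held 3, 2, and 1 counts. The levels of Tinaja and Molino overlapped, and both lay between Pachón and surface fish. The Pachón mean was 7.91 times that of Tinaja and 8.54 times that of Molino, and the step of 2.87 below Pachón was only a little wider than the step of 2.75 above surface fish. This member is thereby close to a different class: with Molino replicate 1 left out, its widest step lay elsewhere. Of all members, only astmex-miR-141 was called differentially expressed, and higher, in both Tinaja and Molino against surface fish.

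Scarcer members were close to the detection limit outside Pachón. All 9 libraries of the other morphs held at most 3 counts of astmex-miR-509, astmex-miR-453, astmex-miR-409, and astmex-miR-547. These were the only 4 of the 503 miRNAs with this property, and miRNAs under the count minimum were left out. A miRNA this scarce in the other morphs could pass the minimum only through Pachón, so these 4 had to be higher there. astmex-miR-645, astmex-miR-486, astmex-miR-500, astmex-miR-373, and astmex-miR-158 also passed only through Pachón, with a mean of under 10 counts over the other 9 libraries. Counts of astmex-miR-509 in the Pachón libraries were 49, 58, and 46, against none in Tinaja, 0, 1, and 0 in Molino, and none in surface fish. In Pachón this was 4.16 ± 0.397 CPM (SD, n = 3), at least 14.8-fold higher than in Tinaja and at least 9.25-fold higher than in surface fish, taking 3 counts per library as the limit there.

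For astmex-miR-453 the counts were 60, 59, and 46 in Pachón, against 2, 0, and 0 in Tinaja, 3, 0, and 1 in Molino, and 0, 0, and 1 in surface fish. A few counts thus occurred in each of the other morphs. Over summed counts, Pachón was 76.6 times Tinaja, with an exact 95% interval of 20.9 to 638 that covers counting error only.

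Pachón libraries held 49, 48, and 24 counts of astmex-miR-409, against none in Tinaja, 1, 0, and 0 in Molino, and 0, 1, and 0 in surface fish. Pachón replicate 3, the library with the smallest Pachón total, had the lowest count and also the lowest level after scaling (2.39 CPM, against 4.11 and 3.14 CPM). astmex-miR-547 had 51, 40, and 29 counts in Pachón, against none in Tinaja and Molino and 1, 0, and 1 in surface fish, which places Pachón at least 11.6-fold above Tinaja and at least 8.68-fold above Molino.

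A further 3 members were scarce outside Pachón. astmex-miR-645 had 23, 51, and 34 counts in Pachón, against 3, 10, and 4 in Tinaja and none in any Molino or surface fish library. Tinaja was thus the only other morph with counts, and Pachón exceeded it 5.96-fold in mean CPM. astmex-miR-486 was at 54, 49, and 49 counts in Pachón, against 10, 6, and 6 in Tinaja, none in Molino, and 4, 1, and 8 in surface fish, with ratios of 6.27 to Tinaja and 6.11 to surface fish and a lower limit of 11.2-fold to Molino. astmex-miR-500 had 56, 60, and 48 counts in Pachón, against 6, 1, and 5 in Tinaja, 1, 0, and 1 in Molino, and 0, 1, and 1 in surface fish. For all of these the Pachón libraries stayed clear of the highest other library.

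astmex-miR-373 had at least 1 count in every library, with 97, 131, and 110 counts in Pachón, against 5, 10, and 7 in Tinaja, 5, 2, and 4 in Molino, and 1, 2, and 1 in surface fish. The mean was 9.22 ± 1.52 CPM in Pachón, against 0.670 ± 0.261 CPM in Tinaja, 0.461 ± 0.201 CPM in Molino, and 0.201 ± 0.0955 CPM in surface fish (SD, n = 3 each). The Tinaja and Molino libraries overlapped in CPM.

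The remaining 6 higher members had steps under 2. Their Pachón means were 10.8 ± 0.845 CPM for astmex-miR-324, 6.97 ± 0.313 CPM for astmex-miR-321, 5.01 ± 1.67 CPM for astmex-miR-291, 7.90 ± 0.644 CPM for astmex-miR-332, 3.53 ± 0.514 CPM for astmex-miR-158, and 4.84 ± 0.911 CPM for astmex-miR-397 (SD, n = 3 each). The steps from Pachón to the nearest morph were 1.86, 1.42, 1.20, 1.02, 0.94, and 0.86 in the same order. The weakest separation relative to spread belonged to astmex-miR-291, at 5.03, 3.34, and 6.68 CPM in Pachón, against 3.16, 1.77, and 0.793 CPM in Tinaja, 1.69, 1.87, and 1.93 CPM in Molino, and 0.586, 1.68, and 2.35 CPM in surface fish. Its lowest Pachón library was barely above the highest Tinaja library, and its step was 1.59 times the larger of the SDs of the Pachón and Tinaja libraries (log2 scale). In astmex-miR-397 the other 3 morphs were nearly level, at 2.44 ± 0.181 CPM in Tinaja, 2.39 ± 0.635 CPM in Molino, and 2.27 ± 0.385 CPM in surface fish (SD, n = 3 each).

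The lower members were led by astmex-miR-305, of which no read was counted in any Pachón library. Absence of the miRNA and reads lost through a sequence difference cannot be told apart here. Counts were 0, 0, and 0 in Pachón, against 170, 174, and 104 in Tinaja, 99, 106, and 90 in Molino, and 116, 88, and 61 in surface fish. In CPM the other 3 morphs were at 13.1 ± 1.09, 12.3 ± 1.27, and 12.7 ± 1.44 (Tinaja, Molino, and surface fish, SD, n = 3 each) and differed by less than their spread. With 3 counts per library as the limit, the counted level in Pachón was at least 52.7-fold lower than in Tinaja. It was at least 49.5-fold lower than in Molino and at least 50.9-fold lower than in surface fish. Of the 503 miRNAs, 10 had no count in any Pachón library, and astmex-miR-305 was the only one of these with at least 10 counts in each of the other 9 libraries.

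astmex-miR-225 had 8.13, 8.12, and 8.57 CPM in Pachón, against 39.5, 33.9, and 36.2 CPM in Tinaja, 85.6, 69.9, and 88.2 CPM in Molino, and 54.6, 57.9, and 52.2 CPM in surface fish. None of the 4 morphs overlapped another, and the order from Pachón over Tinaja and surface fish to Molino held in every library. Relative to Pachón, the mean was 4.42 times as high in Tinaja, 9.82 times in Molino, and 6.64 times in surface fish.

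The most abundant of all members was astmex-miR-45, a lower member, with 163, 169.5, and 176 CPM in Pachón, against 484, 648, and 836 CPM in Tinaja, 1087, 907, and 890.2 CPM in Molino, and 213, 441, and 661 CPM in surface fish. The Pachón libraries agreed closely, while those of surface fish spanned a 3.10-fold range and the lowest of them came near Pachón. The step of 1.37 to surface fish was 1.66 times the larger of the SDs of Pachón and surface fish (log2 scale), the smallest such ratio among the lower members. Without surface fish replicate 3, the step shrank to 0.95 and was no longer the widest, so the place of astmex-miR-45 among the members depends on that library.

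Of the moderately abundant lower members, astmex-miR-232 was at 12.7, 13.2, and 14.6 CPM in Pachón, against 34.6, 32.0, and 41.2 CPM in Tinaja, 56.0, 56.8, and 55.5 CPM in Molino, and 20.0, 25.0, and 26.0 CPM in surface fish. Surface fish came next to Pachón, Tinaja was higher, and Molino was highest, without overlap between any of them. astmex-miR-268 had 4.53, 2.75, and 5.08 CPM in Pachón, against 21.8, 18.0, and 22.6 CPM in Tinaja, 16.8, 16.2, and 14.0 CPM in Molino, and 6.56, 9.45, and 9.57 CPM in surface fish. Here too, surface fish were the nearest morph, but Tinaja stood highest.

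The opposite end was taken by surface fish in astmex-miR-274, at 7.04, 3.93, and 6.38 CPM in Pachón, against 10.9, 9.13, and 13.5 CPM in Tinaja, 23.6, 17.1, and 17.8 CPM in Molino, and 23.2, 29.0, and 22.9 CPM in surface fish. It was the only lower member for which surface fish had the highest level. Its Molino and surface fish libraries overlapped.

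The other 5 lower members were scarce, with a mean of under 50 counts. astmex-miR-415 had 5, 7, and 4 counts in Pachón, against 86, 64, and 44 in Tinaja, 12, 26, and 20 in Molino, and 15, 17, and 13 in surface fish. Its Molino and surface fish libraries overlapped in CPM, and Tinaja lay above both. In astmex-miR-360, with 16, 30, and 10 counts in Pachón, against 79, 95, and 44 in Tinaja, 64, 39, and 58 in Molino, and 43, 39, and 23 in surface fish, the other 3 morphs overlapped at 6.23 ± 0.359, 6.73 ± 1.75, and 5.04 ± 0.896 CPM (Tinaja, Molino, and surface fish, SD, n = 3 each).

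Pachón means were 0.821 ± 0.452 CPM for astmex-miR-374, 1.57 ± 0.587 CPM for astmex-miR-367, and 0.251 ± 0.292 CPM for astmex-miR-505 (SD, n = 3 each). For astmex-miR-374 and astmex-miR-505 the order of the others was the same as for astmex-miR-225, with Tinaja nearest to Pachón and Molino highest. astmex-miR-505 rested on 7, 1, and 1 counts in Pachón, against 11, 17, and 8 in Tinaja, 34, 33, and 21 in Molino, and 19, 9, and 10 in surface fish. With so few counts, the size of its step (1.03) is known only loosely.

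The morph nearest to Pachón varied among the members. Among the 19 higher ones it was Tinaja for 9, surface fish for 6, and Molino for 4, and among the 11 lower ones it was surface fish for 5, Tinaja for 4, and Molino for 2. Molino was farthest from Pachón for 7 of the higher and 6 of the lower members, Tinaja for 6 and 4, and surface fish for 6 and 1. Where morphs without counts tied (astmex-miR-509, astmex-miR-547, and astmex-miR-645), only the first in a fixed order was counted. No single morph was thus next to Pachón throughout. For 5 of the 11 lower members, the range of the other 3 morphs exceeded the step that separated Pachón.

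All 3 Pachón libraries lay above the other 9 for each of the 19 higher members and below them for each of the 11 lower members. Of the 503 miRNAs, 10.1% (51) were separated in this way above and 6.56% (33) below. edgeR's quasi-likelihood test over all 683 miRNAs gives the same contrasts with a call, for which the adjusted p was under 0.05 and the fold change 2 or more. In either direction, 29 of the 30 members were called against Tinaja (24.9% of all miRNAs were), 30 against Molino (39.5%), 29 against surface fish (29.7%), and 30 against the mean of the other 3 morphs (25.6%). The 19 higher members were all called higher in Pachón against Tinaja (14.2% of all miRNAs were), against Molino (15.4%), and against surface fish (16.0%). The 11 lower members were all called lower against Molino (24.2% of all miRNAs were), 10 of them against Tinaja (10.7%), and 10 against surface fish (13.8%). The exceptions were astmex-miR-274 against Tinaja, with a log2 difference of −0.92 (standard error 0.19), and astmex-miR-232 against surface fish, with −0.78 (standard error 0.11), both short of the fold-change rule. These comparisons share the Pachón libraries and the rule used them, so the counts are no support for the choice.

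Comparisons among the other 3 morphs leave Pachón out. Of the 30, 6 (20.0%) were called in Tinaja against surface fish, 8 (26.7%) in Molino against surface fish, and 8 (26.7%) in Tinaja against Molino, where 28.7%, 34.8%, and 42.8% of all 683 miRNAs were. Of the 8 called in Tinaja against Molino, 3 were higher (14.6% of all miRNAs were) and 5 were lower in Tinaja (28.1%). The median sizes of the log2 differences were 0.66, 0.67, and 0.74 over the members and 0.63, 0.77, and 0.95 over all miRNAs. Since the rule requires that the step to Pachón be the widest, it limits these differences, and nothing particular to the members can be read from the shares. Called lower members included astmex-miR-268, higher in Tinaja than in surface fish by 1.30 (standard error 0.18), and astmex-miR-232, higher in Molino than in surface fish by 1.31 (standard error 0.10, both log2).

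**Figure D4:**
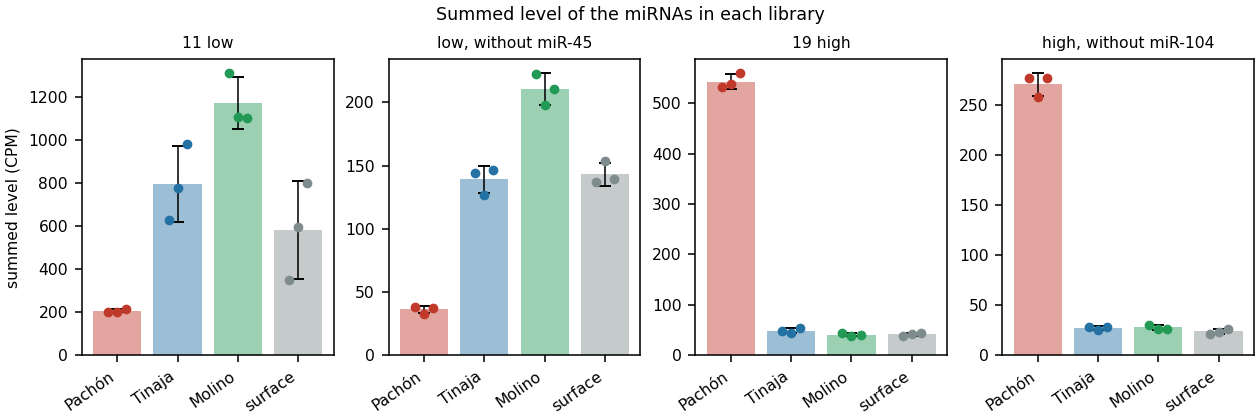
Summed CPM in each morph of, from left to right, the lower members, the same without astmex-miR-45, the higher members, and the same without astmex-miR-104. Bars are means, error bars are SDs, and points are the 3 libraries. Pachón bars are lowest in both left panels and highest in both right ones, and without astmex-miR-45 the spread of the surface fish and Tinaja libraries narrows.

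Together the members took a small part of the miRNA counts. The 19 higher members added up to 532, 537, and 559 CPM in the Pachón libraries, against 47.8, 43.7, and 54.5 CPM in Tinaja, 44.0, 37.7, and 40.7 CPM in Molino, and 38.3, 41.6, and 44.8 CPM in surface fish. The other 3 morphs were thus at a like summed level, 11.2-fold, 13.3-fold, and 13.1-fold below Pachón. astmex-miR-104 alone made up 48.0% to 52.0% of the sum in Pachón, and without it the Pachón sums were 277, 258, and 278 CPM.

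The 11 lower members added up to 201, 202, and 214 CPM in Pachón, against 628, 775, and 982 CPM in Tinaja, 1310, 1105, and 1101 CPM in Molino, and 349.98, 595, and 800.5 CPM in surface fish. In every library astmex-miR-45 accounted for most of this sum, 60.9% to 85.1%. Without it, Pachón stood at 36.2 ± 2.86 CPM, against 139 ± 10.7 CPM in Tinaja, 211 ± 12.5 CPM in Molino, and 143 ± 8.94 CPM in surface fish (SD, n = 3 each).

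The members were scarcer than most of the miRNAs considered. Their median mean count was 37.6, against 102 for the other 473, and 19 of the 30 lay between 10 and 50 counts, as did 209 of the 503. Only astmex-miR-45, of the 132 miRNAs that averaged 1000 counts or more, was a member. For 9 of the 19 higher members the mean over the 9 libraries of the other morphs was under 10 counts, so these passed the minimum only through Pachón, and they had to differ. No lower member passed in that way, which the rule all but fixes, since their higher levels are in the other morphs. Below the minimum, a further 9 higher and 4 lower miRNAs out of 180 met the rest of the rule.

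Spread between replicate libraries, which the rule did not use, was similar in members and other miRNAs in Pachón, with a median SD of 0.16 (log2) over the members and 0.14 over the other 473. In the other morphs it was 0.25 against 0.22 in Tinaja, 0.21 against 0.15 in Molino, and 0.22 against 0.15 in surface fish. The lower abundance of the members goes with these values, and its part in them was not tested. The medians include an SD of 0 where a morph had no count, which is not agreement between libraries. This held for 3 higher members each in Tinaja and Molino, 2 in surface fish, and astmex-miR-305 in Pachón. Within Pachón the lower members had a median SD of 0.36, and the higher members had 0.14. The step exceeded 3 times the larger of the SDs of Pachón and the nearest morph for 15 of the 19 higher and 5 of the 11 lower members. The rule chose the members by this step, so these counts describe the choice, and they were not taken over the other miRNAs.

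Near the limit of the rule, the narrowest steps among members were 0.86 for astmex-miR-397 and 0.94 for astmex-miR-158 on the higher side, and 0.78 for astmex-miR-232 and 0.89 for astmex-miR-274 on the lower side. Just outside it were astmex-miR-118 (0.69) and astmex-miR-383 (0.66) on the higher side, and astmex-miR-29 (0.62) and astmex-miR-483 (0.61) on the lower side. With means of 514.7 and 35088.5 counts, astmex-miR-118 and astmex-miR-29 were more abundant than most members. The levels of astmex-miR-118 were 67.6, 71.8, and 86.7 CPM in Pachón, against 44.0, 47.2, and 47.8 CPM in Tinaja, 45.9, 43.5, and 33.1 CPM in Molino, and 36.4, 43.4, and 41.9 CPM in surface fish. Its libraries did not overlap between Pachón and the other morphs either, and only the size of the step kept it out.

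Each of the 12 libraries was left out in turn to see which members rested on it. Of the 19 higher members, 14 remained in all 12 of these sets, as did 7 of the 11 lower ones. Only 8 higher and 4 lower members also remained under every other scaling, pseudocount, average, and depth tried at the same minimum and step. astmex-miR-409, astmex-miR-509, astmex-miR-547, and astmex-miR-645 left whenever a Pachón library was dropped, because their mean count then fell under 10, while their distance from the nearest morph stayed at 1.61 or more. On the lower side, astmex-miR-45, astmex-miR-268, astmex-miR-274, and astmex-miR-505 each left at least 1 set because another step became wider. Without Pachón replicate 3, the library with the smallest Pachón total, no lower member left and 6 other miRNAs joined them. Pachón remained on its original side of the nearest morph for all 30 members in each of the 12 sets. This had to follow, since no Pachón library overlapped those of the other morphs for any member.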

How the data were processed

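Embryos at 24 hpf gave 3 small RNA libraries per morph. The authors trimmed adapters (cutadapt 2.5), discarded short reads and reads of other RNA classes, called miRNAs from all reads jointly with miRDeep2 on the *A. mexicanus* 2.0 genome, merged identical ones, and counted reads on the precursors in each library. They deposited whole-number counts per mature miRNA, without normalization, and 0 value columns were left unused. Morph and replicate number come from the sample labels.

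CPM used column totals. Differences, standard errors (size divided by the square root of F), and calls came from edgeR 4.0.16 in R 4.3.3, in one fit of all 12 libraries with TMM factors, a mean for each morph, the quasi-likelihood test, Benjamini−Hochberg adjustment over 683 miRNAs, and no low-count filter. The script was tested on simulated data. The authors name edgeR and the same thresholds, but their test function is not given in the sources used here. A fold against libraries without counts was set against 3 counts per library, and limits and intervals cover counting error only. Replicate libraries differed by more than counting noise (chi-square of 13.8 to 721 per degree of freedom), so none was counted as a duplicate.

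The miRNAs named were, on each side, the 8 with the widest step, the 4 most abundant, those with at most 3 counts in every library on the low side of the step, the 2 narrowest, the 2 just outside, and any that left a set without 1 library. Another 6 higher members were named after their values were seen, to account for all. The members and these lists were chosen with earlier results of these data known. Alternatives were other library scalings, pseudocounts, minima, steps, averages, and depths for the membership, and other tests (DESeq2 1.42.0 among them), filters, scalings, and a replicate block for the calls.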

Additional observations from a re-analysis of the deposited data

How the results depend on the processing

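The number of higher members (19) was most sensitive to depth and the count minimum: it was 10 with a mean count minimum of 30 and 12 with all libraries thinned to the shallowest total, where 9 of the 19 remained and 8 of the 10 lost fell under the minimum of 10 counts. The number of lower members (11) rose to 17 without Pachón replicate 3, which added 6 and lost none. With 1 library left out, the higher members numbered 15 to 23 and the lower ones 9 to 17. The other alternatives, including TMM and RLE library sizes, kept both numbers within 1.5 times, though not always with the same members. Of 570 distances between Pachón and the nearest morph under these alternatives, 49 moved by more than the replicate SD, mostly with another pseudocount. None changed sign. Because the Pachón libraries of every member lay clear of the others, a change of sign was possible only with other library scalings or thinned counts.

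Called members numbered 29 against surface fish, 29 against Tinaja, 30 against Molino, and 30 against the mean of the other 3 morphs. With a replicate block these were 29, 29, 30, and 30. Deviations of same-numbered libraries of different morphs had correlations between −0.181 and 0.148 (median −0.00889). Differently numbered ones had correlations between −0.192 and 0.289 (median 0.0141). No pairing by number was thus seen, but with 3 libraries per morph a weak one could be missed. With 1 library left out, the called members were 27 to 29 against surface fish, 27 to 30 against Tinaja, 28 to 30 against Molino, and 29 to 30 against the mean of the other 3 morphs, and no other alternative gave fewer than 27.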
